A study of Oreochromis mossambicus with 6 samples.

Results

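The Janus kinases (JAKs) and the signal transducers and activators of transcription (STATs) were examined in gill filaments of hypophysectomized tilapia. Members were the genes of the deposited count table whose symbol is that of a JAK (jak or tyk2, with its number) or of a STAT and whose counts add up to at least 10 over the 6 libraries. The rule found 11 genes, 5 kinases (jak1, jak2a, jak2b, jak3 and tyk2) and 6 factors (among them stat2, stat3, stat4, stat5a and stat6), of 24878 genes that passed the same count minimum and 32591 in the table. No gene with such a symbol fell under the minimum, and the member with the fewest counts, stat5a, had 9010. A symbol was given to 17210 of the 32591 genes, so that a further paralog without a symbol would not have been taken.

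All 6 fish were wild-type male Mozambique tilapia without a pituitary, the source of their own circulating prolactin (Prl). Following recovery in brackish water, 3 of them were injected intraperitoneally with ovine prolactin (oPrl) at 5 μg per g body weight and 3 with saline vehicle, and filaments were taken a day after the last of a series of injections. Hypophysectomy removes every pituitary hormone, so the oPrl fish had Prl alone replaced. The sequenced fish were a subset of a larger experiment. The labels give no batch.

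JAKs are tyrosine kinases bound to the inner side of cytokine receptors, a family that includes the receptors of prolactin, growth hormone, erythropoietin, the interferons and many interleukins. On hormone binding, paired JAKs phosphorylate each other, the receptor and then STATs, which pair up, enter the nucleus and bind DNA. In mammals the prolactin receptor works through JAK2, mainly to STAT5 and also to STAT3, and SOCS proteins made in response shut the pathway down. Because STATs are switched on by phosphorylation, a transcript count gives the amount of message for a kinase or factor and not its activity.

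The oPrl libraries held 30516271 to 32959492 counts on genes and the vehicle libraries 21643589 to 35976655. Values below are CPM, each gene's count as a share of its library after scaling by the TMM method of edgeR. Treatments were set against each other in the quasi-likelihood (QL) test of edgeR, p-values being adjusted by Benjamini-Hochberg over all 24878 genes. A positive log2 fold change means higher with oPrl. Genes were judged by the study's thresholds, an adjusted p under 0.01 with an absolute log2 fold change over 1, and by a wider one, an adjusted p under 0.05 at any fold. Fish of 1 treatment differed by more than sampling noise in each pair compared. Of the marker lists, that of gill epithelium and ionocytes was apart between the groups, with summed levels of 10380 to 14230 CPM in oPrl fish and 17220 to 18070 CPM in vehicle fish over 18 genes. Single genes of that list differed both ways, with 8 fold changes above 0 and 10 below. By CPM the keratins krt5 and krt8 and the sodium pump subunit atp1a1b led the sum. Of the 18, atp1a1b fell (log2 fold change -1.15, adjusted p = 0.0123, lost without oPrl replicate 3 or vehicle replicate 1) and the bicarbonate transporter gene slc4a4b rose (log2 fold change 1.88, adjusted p = 0.00753). The summed B cell, myeloid, erythrocyte and endothelial markers overlapped between the groups. The filaments were sequenced whole, so that fewer cells of a type and less RNA per cell cannot be told apart. Since CPM values also depend on transcript length, a member's level was compared between fish and not with that of another gene. The ratio of jak2a to jak2b was the exception. Markers are ranked by CPM alone.

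Among the 11 members, stat4 and jak2a passed the wider threshold as lower with oPrl, and no member passed it as higher. Of all genes tested 6.11% passed it, 3.28% as higher and 2.83% as lower genes. DESeq2 called the same 2 members there and 13.3% of all genes. At the study's thresholds edgeR called 0 of the 11 (1.4% of all genes, 0.715% higher and 0.687% lower). DESeq2, with which the study applied those thresholds, called 1, stat4 (6.01% of all genes). At an unadjusted p under 0.05 edgeR gave 4 members, stat4, jak2a, stat2 and stat5a, compared with 21.7% of all genes. The groups did not overlap in 5 members, 2 of them, including stat5a, with every oPrl fish above and 3, jak2a, stat2 and stat4, with every oPrl fish below, whereas 29% of all genes tested were without overlap, 16.3% with oPrl above and 12.7% with oPrl below. All members averaged at least 10 CPM. Of the 11113 genes that did so, 1129 passed the wider threshold and 3387 had an unadjusted p under 0.05 (edgeR QL test). In 2457 of those 11113 every oPrl fish was above every vehicle fish, and in 1787 below. The median log2 fold change of the members was 0.06, and that of all genes was 0.02. Single members spanned -1.07 to 0.42.

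**Figure D1:**
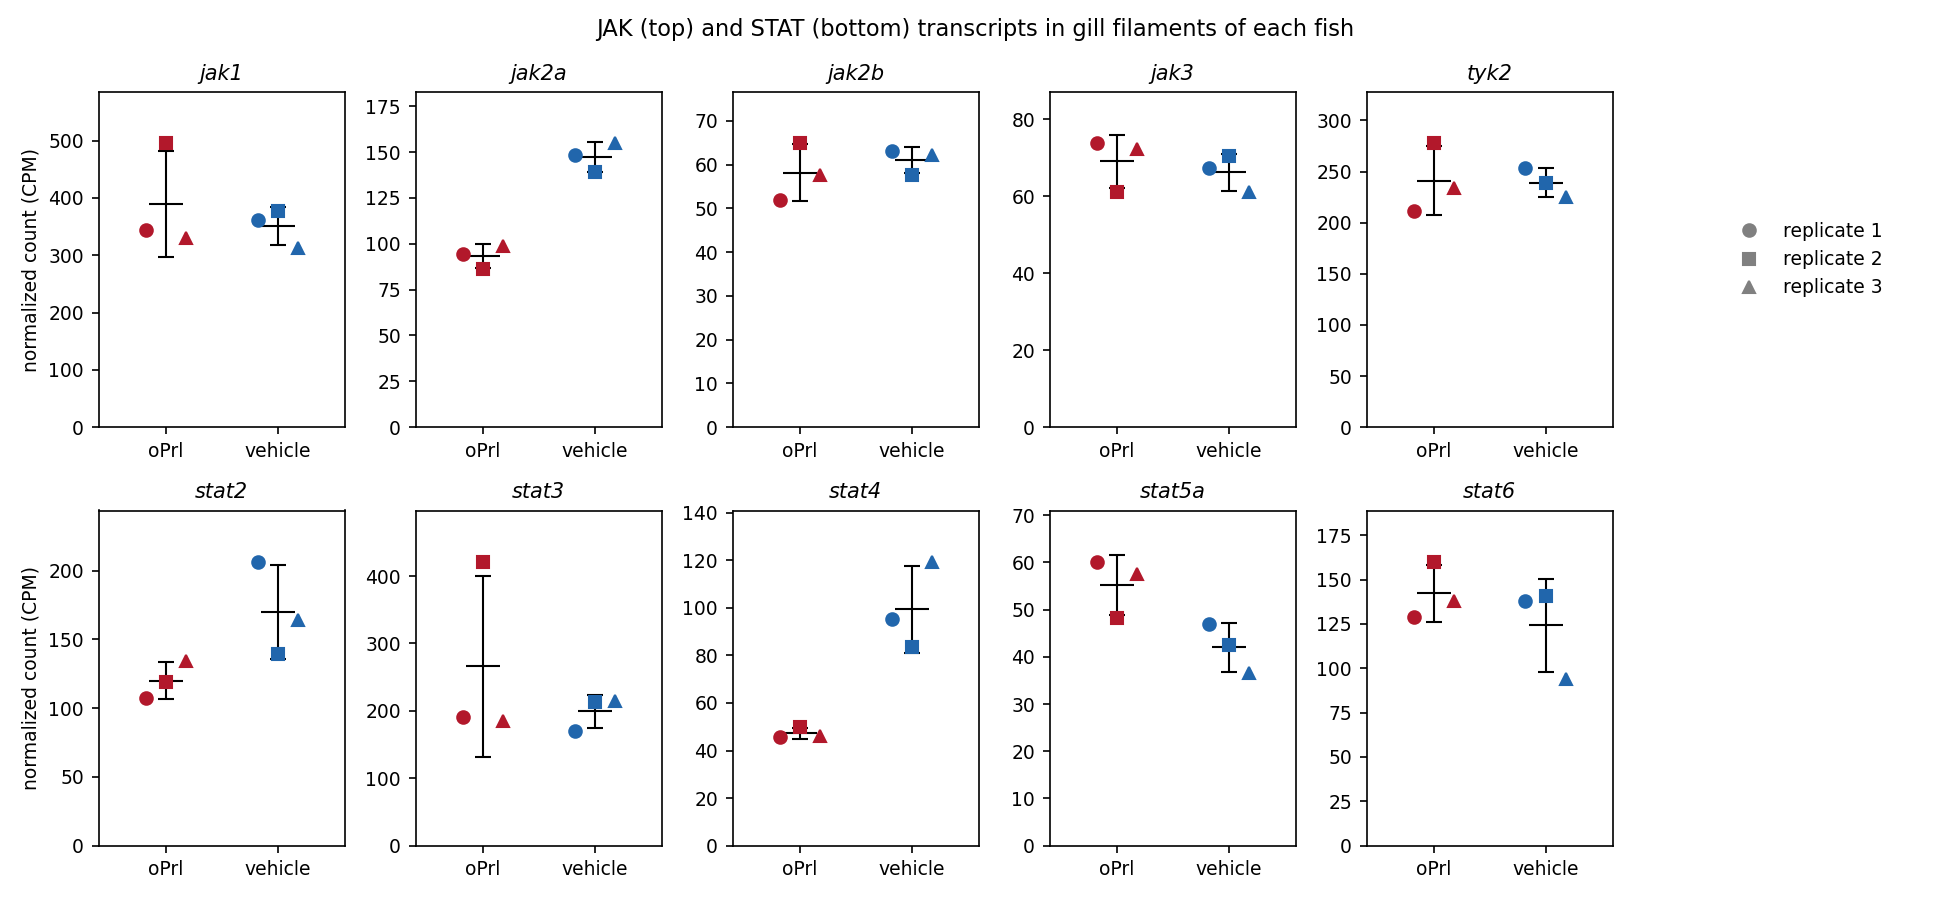
Normalized counts (CPM, linear axes from 0) of 5 JAK and 5 STAT transcripts in each of 3 oPrl-injected (red, left) and 3 vehicle-injected fish (blue, right); symbols mark the replicate, and black bars give the mean and SD. The groups are apart in stat4 and jak2a and, by a narrow gap, in stat2 and stat5a. In stat3, oPrl replicate 2 stands alone at 421 CPM.

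Of the members, stat4 (ENSONIG00000016817) differed most. It encodes the factor that IL-12 receptors activate in T and natural killer (NK) cells of mammals. Its counts were 45.8, 49.9 and 46 CPM in oPrl-injected fish, against 95.3, 83.5 and 119 CPM in vehicle-injected fish. The oPrl fish lay close together and far below the lowest vehicle fish, and the vehicle fish were the more variable group. Mean stat4 was 47.2 ± 2.32 CPM in the oPrl group and 99.4 ± 18.3 CPM in the vehicle group (SD, n = 3 each). This gave a log2 fold change of -1.07 (SE, standard error, 0.17) and its 95% interval -1.47 to -0.67 (adjusted p = 0.015, edgeR QL test), a fall of 52.5% that ranked 524 of all genes by p. DESeq2 gave -1.11 (SE 0.21, adjusted p = 2.43e-06). Leaving out each library gave -1.22 to -0.92, but the adjusted p was above 0.05 without oPrl replicate 1 (0.0624), oPrl replicate 3 (0.0789) or vehicle replicate 1 (0.0683). With fewer fish fewer genes passed in all, 682, 422 and 405 in those fits, compared with 1520 in the full one.

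The kinase that fell was jak2a (ENSONIG00000003957), a copy of the gene for JAK2, which in mammals serves the receptors of prolactin, growth hormone and erythropoietin. Its counts were 94.7, 86.2 and 98.7 CPM in fish given oPrl, against 148.5, 139 and 155 CPM in those given vehicle. Spread within either group was small, and a wide gap lay between the highest oPrl fish and the lowest vehicle fish. Mean jak2a was 93.2 ± 6.38 CPM in the oPrl group and 147 ± 8.05 CPM in the vehicle group (SD, n = 3 each). This gave a log2 fold change of -0.66 (SE 0.13) and a 95% interval of -0.97 to -0.35 (adjusted p = 0.0326, edgeR QL test), a fall of 36.8%. DESeq2 gave an adjusted p of 9.04e-05. The direction was kept without each library in turn, at -0.73 to -0.61. The adjusted p was then 0.0511 to 0.134, above 0.05 for each of the 6, so that the call of jak2a needed all 6 fish. Scaled by library totals alone, under which the median of all genes was 0.19 (0.02 with TMM), jak2a was at -0.48 (adjusted p = 0.0781), or -0.68 relative to that median.

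**Figure D2:**
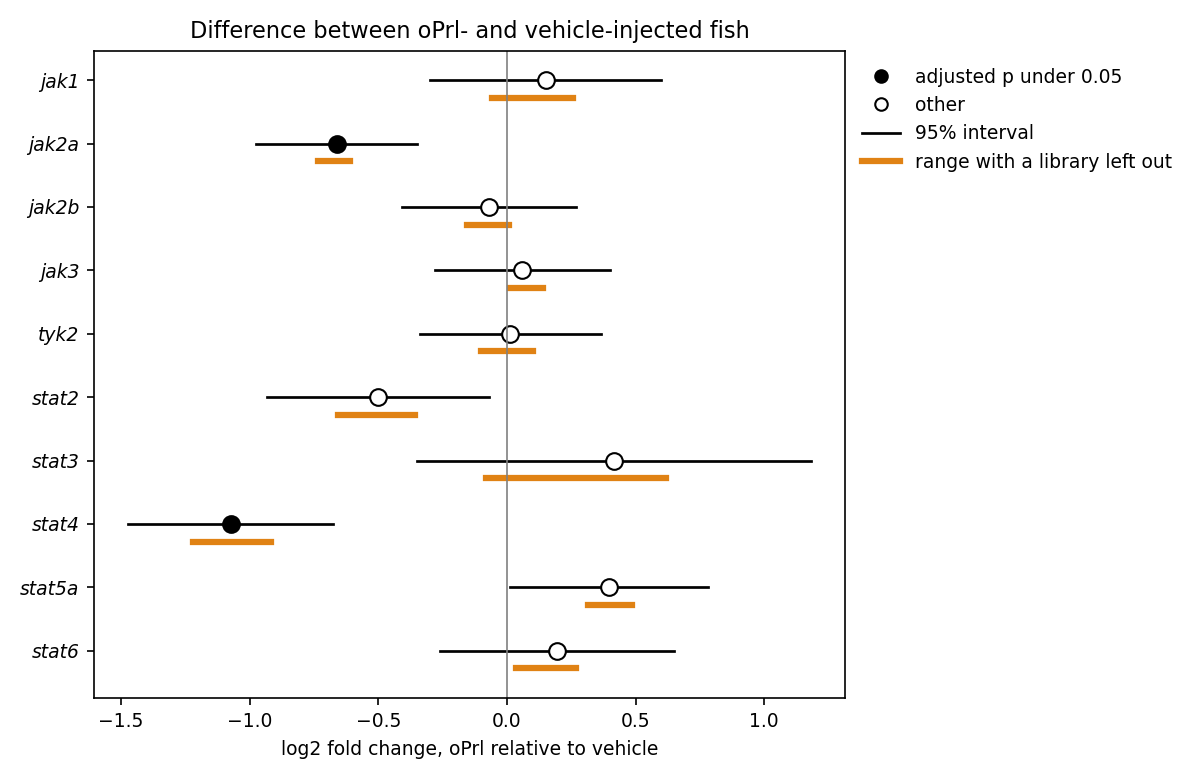
Log2 fold change of 5 JAK and 5 STAT transcripts, oPrl relative to vehicle (circles, filled at an adjusted p under 0.05), with its 95% interval from edgeR (black lines) and its range with each library left out in turn (orange). The intervals of stat4, jak2a and stat2 lie wholly below 0 and that of stat5a wholly above, and the orange bars of jak1, jak2b, stat3 and tyk2 cross 0.

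The other copy of the kinase gene, jak2b (ENSONIG00000016948), had 51.9, 64.9 and 57.6 CPM with oPrl and 63.1, 57.6 and 62.3 CPM with vehicle. The groups overlapped. Its log2 fold change of -0.07 had a 95% interval of -0.41 to 0.27 (adjusted p = 0.838, edgeR QL test), which leaves room for a fall of up to 0.41 on the log2 scale. Of the counts of the jak2 pair, jak2a took 64.6%, 57% and 63.2% in oPrl fish and 70.2%, 70.7% and 71.3% in vehicle fish. The log2 ratio of jak2a to jak2b within a fish was thus 0.68 ± 0.24 with oPrl and 1.27 ± 0.04 with vehicle (SD, n = 3 each). The difference of -0.59 had p = 0.1 in a two-sided exact permutation test, the smallest p that 3 fish against 3 allow, and no other pair of members shared a base symbol. Reads that fit both copies could not be assigned in counts of unique reads. The share and the ratio within a fish also depend on the transcript lengths of both copies, so only the difference between groups was read.

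The remaining kinases gave small differences. The receptors of interferons and of the IL-6 and IL-2 families use jak1 (ENSONIG00000008800), which had 343, 495 and 330 CPM with oPrl and 362, 377 and 313 CPM with vehicle. The high value of oPrl replicate 2 set its sign, since the log2 fold change was 0.15 with all fish and -0.06 without that fish. Partner of the common gamma chain of lymphocyte receptors in mammals, jak3 (ENSONIG00000012612) had 73.8, 61.1 and 72.2 CPM with oPrl and 67.2, 70.3 and 61 CPM with vehicle. Transcripts of tyk2 (ENSONIG00000001561), which attends the receptors of type I interferon and IL-12, were at 212, 278 and 234 CPM with oPrl and 253, 238 and 225 CPM with vehicle. In jak1, jak3 and tyk2 the groups overlapped. The 95% intervals of the log2 fold change were -0.30 to 0.60 for jak1, -0.28 to 0.40 for jak3 and -0.34 to 0.37 for tyk2. Changes as large as those of stat4 and jak2a lay outside each of them on the lower side.

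Among the STATs, stat5a (ENSONIG00000001131) is the counterpart of the factor through which prolactin acts in the mammalian mammary gland. It had 60.2, 48.1 and 57.6 CPM in oPrl fish and 46.9, 42.5 and 36.5 CPM in vehicle fish. Every oPrl fish was above every vehicle fish, although oPrl replicate 2 and vehicle replicate 1 were nearly level. Mean stat5a was 55.3 ± 6.34 CPM in the oPrl group and 42.0 ± 5.19 CPM in the vehicle group (SD, n = 3 each), and the log2 fold change was 0.40 (SE 0.16, adjusted p = 0.219, edgeR QL test). This did not pass the threshold, and the 95% interval ran from 0.01 to 0.78. Without each library in turn the value stayed between 0.31 and 0.49.

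The factor stat2 serves type I interferon receptors in mammals, where it acts together with IRF9. The counts of stat2 (ENSONIG00000019094) were 107, 119 and 134 CPM with oPrl and 207, 139 and 164 CPM with vehicle. Here all oPrl fish were below all vehicle fish, but oPrl replicate 3 and vehicle replicate 2 were nearly level, and the log2 fold change was -0.50 (SE 0.19, adjusted p = 0.173, edgeR QL test), which did not pass the threshold. The partner irf9 had 130 to 161 CPM with oPrl and 94.7 to 125 CPM with vehicle (log2 fold change 0.37, adjusted p = 0.238, same test).

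For stat6 (ENSONIG00000011930), the factor of IL-4 and IL-13 receptors, the counts were 129, 160 and 138 CPM with oPrl and 138, 141 and 93.9 CPM with vehicle. The groups overlapped, and the log2 fold change was 0.20 (SE 0.19). Without vehicle replicate 3, the lowest fish, it was 0.03.

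The largest spread within a group was that of stat3 (ENSONIG00000001148), the factor of IL-6 family and leptin receptors. Its counts were 191, 421 and 186 CPM with oPrl and 171, 213 and 214 CPM with vehicle. Replicate 2 stood alone, and the other oPrl fish lay within the range of the vehicle fish. The coefficient of variation was 50.7% among oPrl fish and 12.5% among vehicle fish. The log2 fold change was 0.42 (SE 0.33, adjusted p = 0.526, edgeR QL test) and -0.08 (SE 0.16) without oPrl replicate 2 (adjusted p = 0.834).

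In oPrl replicate 2, stat3 was 2.24 times the mean of the other oPrl fish, and 6.29% of all genes tested were raised as far or further in that library. It was the only one of the 11 members raised more than 2-fold there. That fish had the highest value of 6 members (among them jak1, jak2b, stat3, stat6 and tyk2), or 54.5%, compared with 25.3% of all genes and 35.1% of those averaging at least 10 CPM. Among 42 STAT target genes, chosen with earlier results of these data known, 9 were raised more than 2-fold in that library, or 21.4%. The share was 8.54% of all genes and 4.89% of those averaging at least 10 CPM. Some of the 9, named here after their values were seen, are known targets of STAT3. Other known STAT3 targets were not raised there, with birc5a at 0.648, ccnd1 at 0.976 and myca at 1.06 times the mean of the other oPrl fish. Between the groups birc5a had a log2 fold change of 1.86 and passed the wider threshold. With a library left out, that call held only without vehicle replicate 3 (adjusted p up to 0.162 in the other fits, edgeR QL test). Also in that library, cdkn1a was at 3.76 and bcl6ab at 1.64 times the mean of the other oPrl fish. The suppressor socs3b had 21.3, 111 and 20.8 CPM in oPrl fish and 14.6 to 26.3 CPM in vehicle fish. Its relative socs3 had 35.2, 120 and 35.4 CPM in oPrl fish and 547 to 562 CPM in vehicle fish. The kinase gene pim1 had 85, 251 and 81.3 CPM in oPrl fish and 115 to 170 CPM in vehicle fish. The AP-1 subunit gene junbb had 68.5, 460 and 73.5 CPM in oPrl fish and 52.8 to 278 CPM in vehicle fish. These 4 genes were set beside stat3 with their values known, so a replicate 2 above the other oPrl fish was fixed by that choice. In each of them oPrl replicates 1 and 3 were close together. Of 18 receptor genes, chosen with earlier results of these data known, 3 were raised more than 2-fold there, or 16.7%, beside 8.54% of all genes. They were lepr (leptin) at 2.97, csf3r (granulocyte colony-stimulating factor) at 2.5 and ifngr1l (interferon gamma) at 2.27 times the mean of the other oPrl fish. The receptors lifra and cntfr were at 1.04 and 0.938 times that mean. The keratin krt18a.1 was 4.26 times that mean, whereas krt5, krt8, krt18b and krt18a.2 were at 1.63, 1.45, 1.22 and 0.682 times it. Of the 18 gill epithelium and ionocyte genes 2 were raised more than 2-fold, or 11.1%, beside 8.54% of all genes. The summed T and NK cell markers were lowest in that library, at 648 CPM, oPrl replicates 1 and 3 having 990 and 910.7 CPM. Most of that gap lay in gata3, at 282 CPM in oPrl replicate 2 and 529 CPM in the mean of the other oPrl fish, whereas lck, zap70, itk and prf1.9 were at 0.95, 0.9, 0.892 and 1.07 times that mean. The summed endothelial markers were at 449.8 CPM in oPrl replicate 2 and at 937.6 and 912.8 CPM in oPrl replicates 1 and 3. Most of that gap lay in vwf and cldn5b. They were at 108 and 56.1 CPM in oPrl replicate 2 and at 330 and 187 CPM in the mean of the other oPrl fish. Of the other endothelial genes, cldn5a and tie1 were at 0.273 and 0.371 times that mean, and kdrl, cdh5 and pecam1 at 1.41, 1.04 and 1.01 times. The part of these shifts in the stat3 values was not tested.

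**Figure D3:**
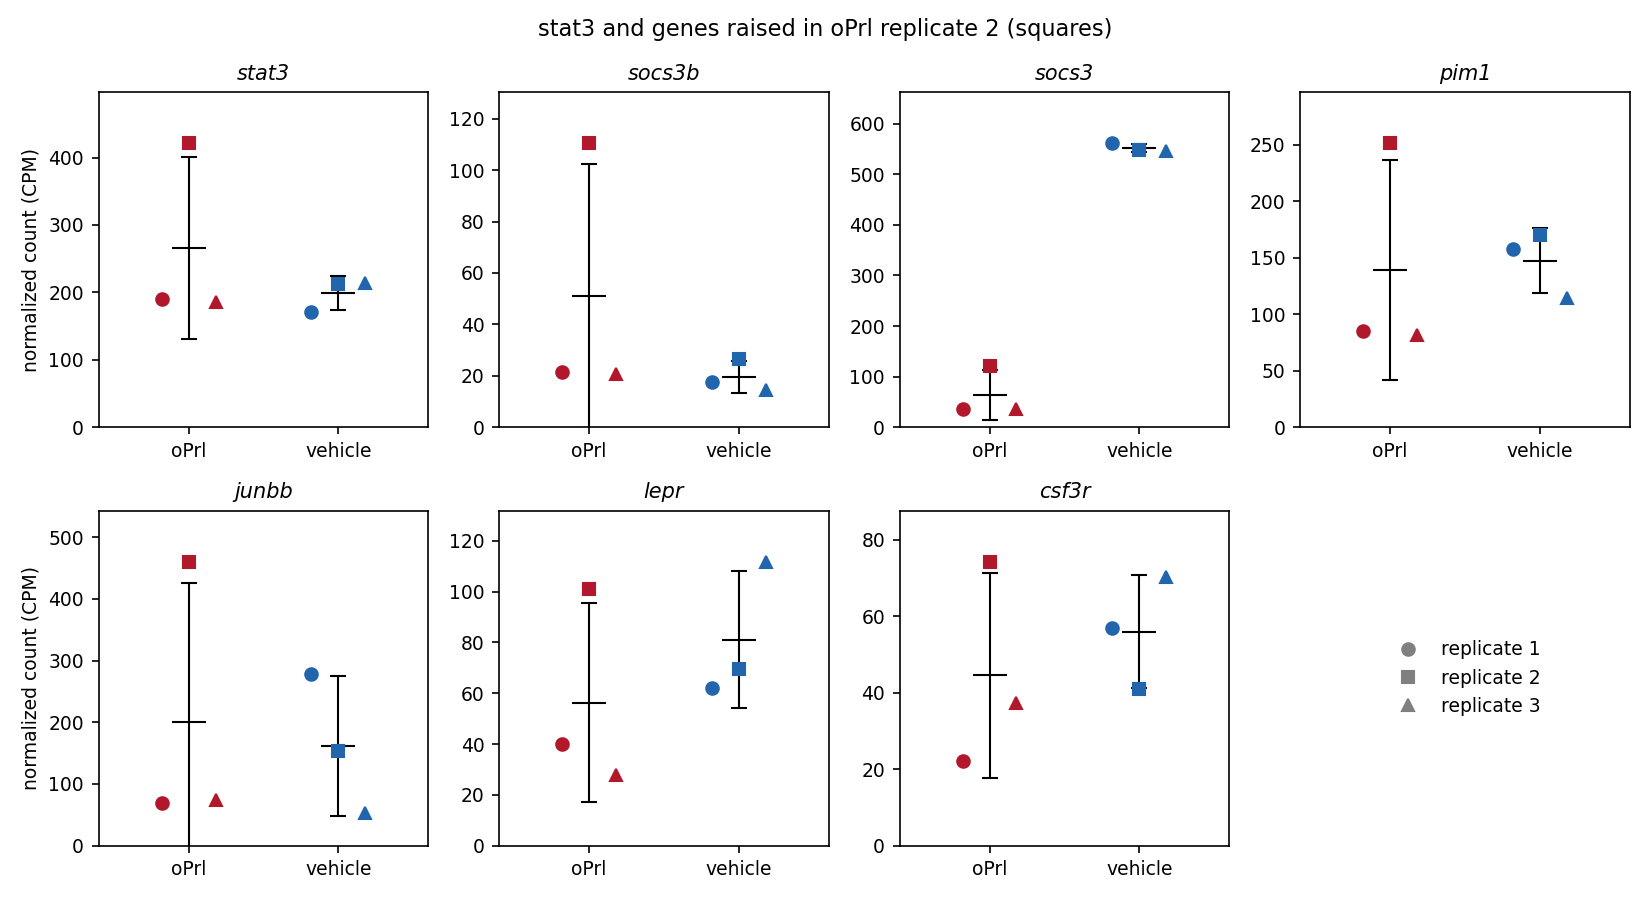
Normalized counts (CPM, linear axes from 0) of stat3, of the STAT targets socs3b, socs3, pim1 and junbb and of the receptors lepr and csf3r in each fish, oPrl left in red and vehicle right in blue, with mean and SD in black (cut at 0 where the SD exceeds the mean). The square of oPrl replicate 2 is the highest oPrl value in each panel, at 421 CPM for stat3. The genes beside stat3 were chosen with their values known.

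The fall of stat4 was set beside the genes around it. The receptor list held 18 genes, chosen with earlier results of these data known. At an adjusted p under 0.05 (edgeR QL test) 3 fell and 0 rose, beside 2.83% lower and 3.28% higher of all genes. Among those 3 was il13ra2, known in mammals as a decoy receptor. The median log2 fold change of the list was -0.37. The chain of the IL-12 receptor that recruits STAT4 in mammals, il12rb2, had 30.6, 26.6 and 22 CPM with oPrl and 61.7, 69.5 and 44.9 CPM with vehicle. The groups were apart, with a log2 fold change of -1.15 (SE 0.22, adjusted p = 0.0252, same test). Without oPrl replicate 1, oPrl replicate 2, oPrl replicate 3, vehicle replicate 1 or vehicle replicate 2 it lost the call, with adjusted p up to 0.102.

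None of the T and NK cell markers passed the test as lower. Of 25 symbols in that list 12 were matched, giving 14 genes tested, none of which was at 0 in any library. Their summed level was 648 to 990 CPM in oPrl fish and 746 to 955 CPM in vehicle fish, so the groups overlapped. The largest part of that sum was gata3, with a mean of 448 CPM over all fish and a log2 fold change of -0.0085. The sum therefore says little about the less abundant markers. Of the 14, 8 had a log2 fold change above 0 and 6 below. In 4 every oPrl fish was above every vehicle fish and in 1 below, beside 16.3% and 12.7% of all genes. At an adjusted p under 0.05 DESeq2 called 3 of the 14 as higher and 0 as lower, beside 13.3% of all genes in either direction. The most abundant of the 14 were gata3 (also an epithelial gene), prf1.9 (a perforin) and lck (a T cell kinase). Expression of lck was 65.1 to 68.8 CPM with oPrl and 42.8 to 51.2 CPM with vehicle (log2 fold change 0.53, adjusted p = 0.0722, edgeR QL test). For prf1.9 it was 57.3 to 74.1 CPM with oPrl and 83.2 to 152 CPM with vehicle (log2 fold change -0.68, adjusted p = 0.18). The only marker to pass was tbx21, the T helper factor T-bet, which in mammals acts with STAT4. It rose, at 17.2, 13.7 and 19.4 CPM with oPrl and 9.76, 9.06 and 7.58 CPM with vehicle (log2 fold change 0.93, adjusted p = 0.0466, same test), a call that held in 1 of 6 fits with a library left out, the one without oPrl replicate 2 (adjusted p up to 0.176 in the others). With the same fish compared, stat4 and il12rb2 were thus lower and tbx21 was higher in oPrl fish. In prf1.9, too, every oPrl fish was below every vehicle fish, though prf1.9 did not pass the threshold. The groups overlapped in zap70 and itk, kinases of T cell receptor signaling. Here tbx21, zap70 and itk were chosen after their values were seen. The general leukocyte markers coro1a, lcp1 and ptprc and their list overlapped as well, with summed levels of 1434 to 1681 CPM in oPrl fish and 1347 to 1794 CPM in vehicle fish. The part of these markers, and of the lower summed level of gill epithelium markers, to which its genes contributed in both directions, in the falls of stat4 and jak2a was not tested.

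**Figure D4:**
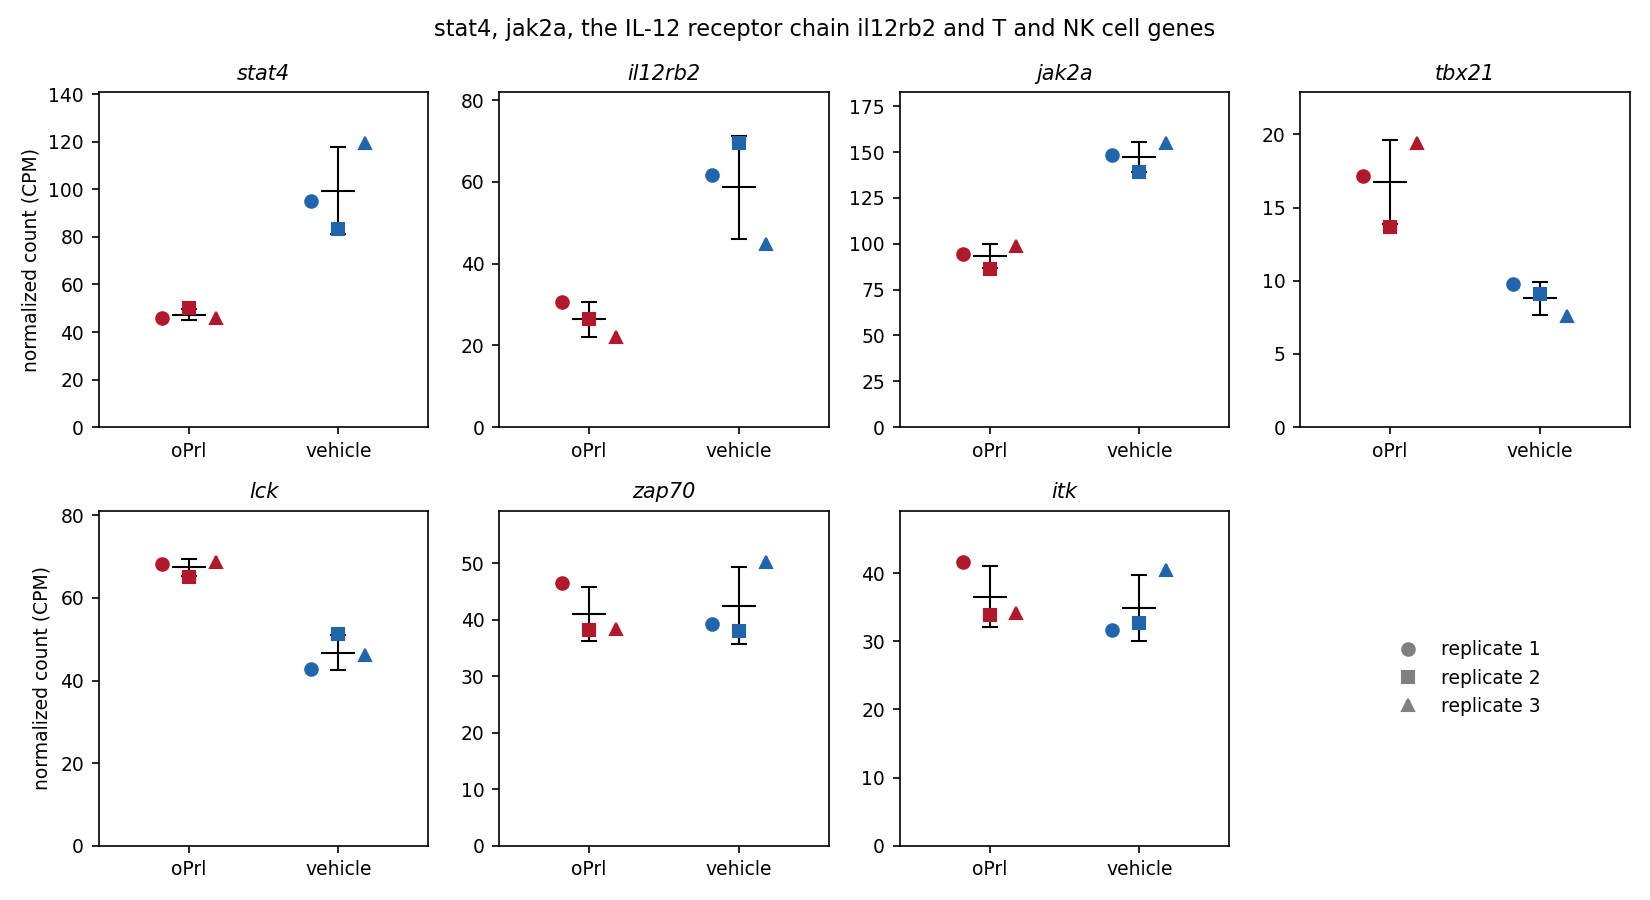
Normalized counts (CPM, linear axes from 0) of stat4, il12rb2, jak2a, tbx21, lck, zap70 and itk in each fish, oPrl left in red and vehicle right in blue, with mean and SD in black. The oPrl fish are below the vehicle fish in stat4, il12rb2 and jak2a. They are above the vehicle fish in lck and in tbx21, at 13.7 to 19.4 CPM, and the groups overlap in zap70 and itk. The marker prf1.9, in which every oPrl fish was below every vehicle fish, is not shown.

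The thrombopoietin receptor mpl, which uses JAK2 in mammals, fell together with jak2a. It had 12.9, 7.95 and 10.9 CPM with oPrl and 19.9, 24.4 and 30.9 CPM with vehicle (log2 fold change -1.25, SE 0.25, adjusted p = 0.0324, edgeR QL test). The call was lost without each library in turn, at adjusted p of 0.0572 to 0.114. Receptors of further hormones that use JAK2 did not pass, among them the following. The erythropoietin receptor epor had 13.7 to 21.4 CPM with oPrl and 27.7 to 54 CPM with vehicle (log2 fold change -1.14, adjusted p = 0.0883), and ghr, for growth hormone, had 1.57 to 3.93 CPM with oPrl and 4.82 to 7.42 CPM with vehicle (log2 fold change -1.10, adjusted p = 0.159). By DESeq2 both epor and ghr did pass (adjusted p = 0.00846 and 0.0419). A further growth hormone receptor gene, ghr1, had 0.246 to 1.92 CPM with oPrl and 0.763 to 1.42 CPM with vehicle. Its groups overlapped, with a log2 fold change of 0.20 and a wide 95% interval of -1.46 to 1.86 (adjusted p = 0.909, edgeR QL test). Of the prolactin receptor genes, prlr had 58.9, 71.8 and 66.6 CPM with oPrl and 57.8, 44.7 and 35.8 CPM with vehicle (log2 fold change 0.51, adjusted p = 0.199, edgeR QL test), the groups lying barely apart. The groups overlapped in prlr2, at 76.3 to 86.8 CPM with oPrl and 74.5 to 83.1 CPM with vehicle (log2 fold change 0.03, 95% interval -0.29 to 0.34). The remaining receptor to fall was il13ra2, known in mammals as a decoy receptor for IL-13, with 55.6 to 72.9 CPM with oPrl and 117 to 154 CPM with vehicle (log2 fold change -1.05, adjusted p = 0.0178). Without oPrl replicate 1, oPrl replicate 3 or vehicle replicate 1, il13ra2 was not called (adjusted p up to 0.0868).

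Proteins that restrain JAKs and STATs went both ways. Of 32 such genes tested, chosen with earlier results of these data known, 1 rose and 3 fell at an adjusted p under 0.05. Of all genes, 3.28% rose and 2.83% fell. The copy socs1b rose (log2 fold change 2.27, adjusted p = 0.00284, edgeR QL test), while socs3, socs1 and CISH fell, with log2 fold changes of -3.12, -1.04 and -1.35 (adjusted p = 0.0157, 0.029 and 0.0351). A second gene with the symbol cish was at -0.91 (adjusted p = 0.217). The genes socs2, socs5b, socs6a, socs7 and socs9 did not pass, with log2 fold changes of 0.06 to 0.66. Nor did socs3b, at 1.38 with all fish and 0.11 without oPrl replicate 2. Each of socs3, socs1 and CISH lost the call without some library, at adjusted p up to 0.0573 for socs3 without oPrl replicate 3 or vehicle replicate 1, 0.115 for socs1, which held only without oPrl replicate 2, and 0.133 for CISH, which held only without vehicle replicate 2. The phosphatases ptpn1, ptpn2a, ptpn2b, ptpn6, ptpn11a and ptpn11b and the STAT inhibitors pias1a, pias1b, pias2 and pias4a did not pass, with log2 fold changes of -0.18 to 0.50.

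Of 31 adaptors and cofactors, 2 rose and 0 fell at an adjusted p under 0.05, a share close to the 6.11% of all genes called, both of them copies of exportin 1, which carries proteins including STATs out of the nucleus. Expression of xpo1a was 65.6 to 83.8 CPM with oPrl and 29.5 to 34.2 CPM with vehicle (log2 fold change 1.25, adjusted p = 0.0074, edgeR QL test), and that of xpo1b was 103 to 105 CPM with oPrl and 59.7 to 67.3 CPM with vehicle (log2 fold change 0.73, adjusted p = 0.0216). The call of xpo1b was lost without oPrl replicate 1, oPrl replicate 3, vehicle replicate 1 or vehicle replicate 2 (adjusted p up to 0.0995). Next by p came nmi, a STAT-binding protein induced by interferon, with a log2 fold change of 0.59 that did not pass (adjusted p = 0.0658).

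**Figure D5:**
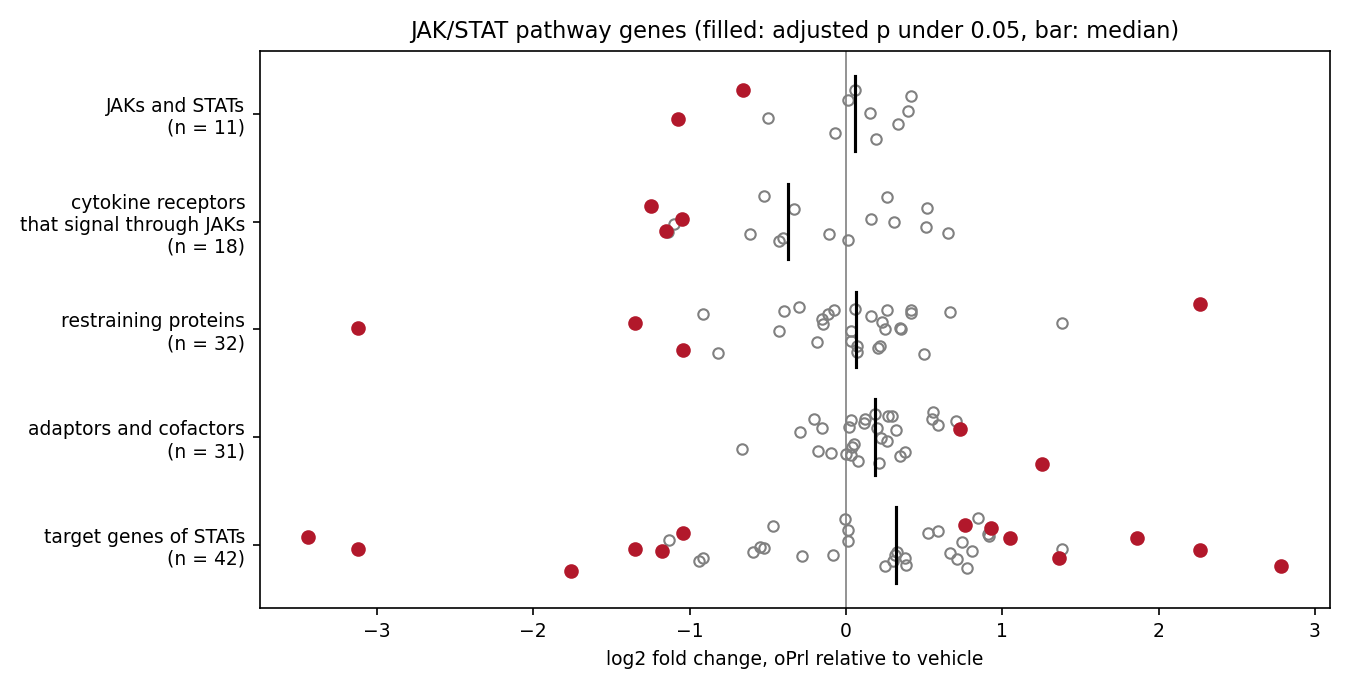
Log2 fold change, oPrl relative to vehicle, of each JAK and STAT gene and of each gene in 4 lists of the same pathway (circles, filled red at an adjusted p under 0.05), with the median of each row as a black bar; a gene in more than 1 list appears in each. The JAKs and STATs span -1.07 to 0.42, and filled circles lie on both sides of 0 among the 42 targets.

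Target genes of STATs moved on both sides. The 42 tested were chosen with earlier results of these data known, and some are also among the restraining proteins. At an adjusted p under 0.05, 7 rose and 6 fell, beside 3.28% higher and 2.83% lower of all genes. The median log2 fold change of the 42 was 0.32, beside 0.02 over all genes. Interferon regulatory factor 1, irf1 (ENSONIG00000017217, named in the study's supplement, without a symbol in the table and so not among the 42), is induced by prolactin in mammalian lymphocytes. It had 596, 752 and 547 CPM with oPrl and 105, 103 and 101 CPM with vehicle (log2 fold change 2.61, SE 0.17, adjusted p = 0.00121, edgeR QL test). The antigen peptide transporter tap1 had 185 to 280 CPM with oPrl and 84.7 to 87.7 CPM with vehicle (log2 fold change 1.37, adjusted p = 0.00871, edgeR QL test). The growth factor igf1, a STAT5 target of growth hormone in mammalian liver, had 1.78 to 4.97 CPM with oPrl and 0.526 to 0.611 CPM with vehicle (log2 fold change 2.78, adjusted p = 0.0193). The PIM kinases, survival kinases downstream of STATs, differed in direction among themselves. Expression of pim3 fell (log2 fold change -1.76, adjusted p = 0.00375) and that of pim2 rose (log2 fold change 1.05, adjusted p = 0.0213). With all fish pim1 was at -0.08 (adjusted p = 0.94), and without oPrl replicate 2 it was at -0.83 (adjusted p = 0.0756). The survival gene mcl1b fell, with 364 to 583 CPM with oPrl and 912 to 1104 CPM with vehicle (log2 fold change -1.18, adjusted p = 0.0235). With a library left out, irf1, pim3 and socs1b stayed at an adjusted p under 0.05 in 6 of 6 fits, and tap1 and xpo1a in 5, all but the one without vehicle replicate 1. The call of igf1 held only without oPrl replicate 2, that of pim2 only without oPrl replicate 2 or vehicle replicate 3, and that of mcl1b only without oPrl replicate 2 or vehicle replicate 2.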

How the data were processed

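Gill filament RNA of 6 fish was sequenced, 3 with oPrl and 3 with vehicle. According to the methods, adapters were removed with Trimmomatic 0.36, reads were mapped to the Nile tilapia genome of Ensembl (build not given in the sources used here) with STAR 2.5.2b, and the authors deposited raw counts, made by featureCounts from uniquely assigned reads. The strand setting is not given, so overlapping and antisense genes may share reads. A row without a gene ID, 0.0901% to 0.135% of a library, was left out.

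Genes with at least 10 counts in all were kept (24878). edgeR 4.0.16 in R 4.3.3 (TMM, quasi-likelihood test, Benjamini-Hochberg adjustment) gave the results, tested on simulated data. The standard error was the fold change over the root of F. DESeq2 1.42.0 (no adjusted p for 3981 genes), other scalings and filters, robust fitting, a replicate block and leaving out libraries were alternatives. The jak2a to jak2b ratio used a pseudocount of 0.5 counts.

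Members and lists were chosen with earlier results of these data known. Genes named by rule were the members, the prlr, ghr, cish, socs and irf1 genes, the list genes first by p among those called, and the most abundant markers. Further list genes were named outside this rule with their values known, among them cdkn1a, bcl6ab, ccnd1, myca, pim1, junbb, lepr, csf3r, krt18a.1, tbx21, zap70 and itk. Sequences are not printed, and the values of 1 member are not reported here.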

Additional observations from a re-analysis of the deposited data

How the results depend on the processing

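At the wider threshold the count of members called was 2 with RLE scaling, DESeq2, a minimum of 1 count, edgeR's own expression filter and robust fitting. It was 1 (stat4) with library totals, 0 with the replicate block, and 0 to 1 with a library left out. At the study's thresholds it was 1 with DESeq2 and 0 in the other settings, including each library left out (0 to 0). Over all genes, 349 passed the study's thresholds, compared with 1496 by DESeq2, 505 with library totals, 30 with the block and 0 to 215 with a library left out, and 1520 passed the wider one, compared with 3315 by DESeq2, 700 with the block and 405 to 1401 with a library left out.

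Signs turned in 4 members, none of them called. The log2 fold change of tyk2 was -0.0206 with RLE scaling, -0.0206 with DESeq2 and -0.0062 with edgeR's filter, and -0.10 to 0.10 with a library left out. That of jak2b was 0.10 with library totals (-0.09 relative to the median of all genes) and -0.15 to 0.0063 with a library left out. That of jak1 was -0.0597 to 0.26 and that of stat3 -0.0829 to 0.62 with a library left out. The cause was not tested. The difference in the jak2a to jak2b ratio was -0.68 to -0.45 with a library left out.

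Replicate numbers did not pair the fish. Deviations of fish with the same number correlated at -0.09, -0.10 and -0.02, and 0 of 6 libraries correlated best with its own number. With the replicate block, stat4 was at -1.06 (adjusted p = 0.0578) and jak2a at -0.66 (adjusted p = 0.124). Nothing in the sources says that the fish were held apart, and with 3 fish a group differences as small as those of stat2 and stat5a did not pass.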
